A study of Mus with 9 samples.

Results

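The proteasome genes were taken from the RNA sequencing table as the protein-coding genes whose symbol starts with Psma, Psmb, Psmc, Psmd, Psme, Psmf or Psmg and a digit, without Psmb8, Psmb9 and Psmb10. This rule found 47 of 54532 genes. Of these, 46 encode subunits, assembly chaperones, activators or an inhibitor of the proteasome, and 1, Psmc3ip, matched by its symbol alone, since it encodes a cofactor of meiotic recombination. The rule used names and no measured value. Whole kidney of male C57BL/6 mice was sequenced, with 3 mice in each of 3 groups. All mice had 1 kidney removed at 18 months of age. The 18 mo group was killed a week after this surgery without injections. The 21 mo group was injected intraperitoneally with saline every day, and the 21 mo/O304 group with O304, an activator of the energy-sensing kinase AMPK, until 21 months. Age, time since surgery and injection thus all differ between the 18 mo mice and all other mice and cannot be told apart.

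The proteasome is the protease that degrades most ubiquitin-tagged proteins in the cytosol and the nucleus. Its barrel-shaped 20S core is a stack of rings: the outer rings are built of α subunits (Psma), which form the gate, and the inner rings of β subunits (Psmb), of which Psmb5, Psmb6 and Psmb7 carry the chymotrypsin-like, caspase-like and trypsin-like active sites. The 19S particle caps the core, with a ring of ATPases (Psmc) that unfolds the substrate and with non-ATPase subunits (Psmd) that bind ubiquitin chains and cut them off. In cells under interferon, Psmb8, Psmb9 and Psmb10 take the places of Psmb5, Psmb6 and Psmb7 to form the immunoproteasome, and the activator made of Psme1 and Psme2 can bind the core in place of the 19S particle. In the kidney the proteasome works beside autophagy and the lysosome, which handles the protein that proximal tubule cells take up.

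The counts on genes summed to between 15636378 and 18396725 per library, and 15902 genes passed the filter on low counts and were tested. Levels are given as counts scaled to library size (CPM) after TMM normalization with edgeR, where 1 count was worth between 0.0458 and 0.0669 CPM. Fold changes are log2 values from edgeR's quasi-likelihood test over all 9 libraries, and the threshold was an adjusted p under 0.05. A value of a gene that is given without CPM or FPKM is its log2 fold change in the comparison at hand. The mice of the 21 mo group were unlike each other. Summed over 9 proximal tubule markers, such as Lrp2 and Slc34a1, all of them above 0, the level was between 13450 and 16610 CPM in the 18 mo group and between 14910 and 15540 CPM under O304. In replicates 1 to 3 of the 21 mo group it was 14660, 7199 and 1956 CPM. The sum of 8 leukocyte markers, likewise all detected, was 611, 1014 and 3213 CPM in these 3 mice, against 217 to 377 CPM at 18 mo and 464 to 494 CPM under O304. The sum of 6 fibroblast markers, all detected too, was 139, 570 and 1373 CPM in them, against 180 to 277 CPM at 18 mo and 115 to 259 CPM under O304. In the 21 mo group 8 of 9 tubule markers had a negative log2 fold change against the 18 mo group, and 7 of 8 leukocyte and 6 of 6 fibroblast markers a positive one. Under O304, 9 of 9 tubule markers were higher than under saline, and 6 of 8 leukocyte and 6 of 6 fibroblast markers lower. The other groups were not uniform either. The sum of 5 adipocyte markers, up to 4 of them at 0 in a library, was 70.8, 5.90 and 46.0 CPM under O304. It was 0.123 to 4.41 CPM at 18 mo and 1.07 to 2.47 CPM at 21 mo. The sum of 4 thick limb, distal and collecting duct markers was 7954, 3394 and 3774 CPM in the 18 mo mice. In bulk tissue, fewer cells of a type and less RNA per cell cannot be told apart.

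Proteasome genes were well expressed in all groups. The 45 tested members took between 42 and 3986 counts per library, and 27 of them had at least 1000 counts in every library. Together the members made up 0.373% to 0.452% of the counts of the 21 mo group, 0.381% to 0.404% of the 18 mo group and 0.355% to 0.390% of the O304 group. The 2 members that failed the filter are forms of other organs. Psma8, the α subunit of the testis, had 0 to 15 counts per library, and Psmb11, the β subunit of cortical cells of the thymus, had 0 or 1. Psmb11 lies 3411 bases from Psmb5 on chromosome 14. Of the tested members, 21 overlap another annotated gene.

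**Figure D1:**
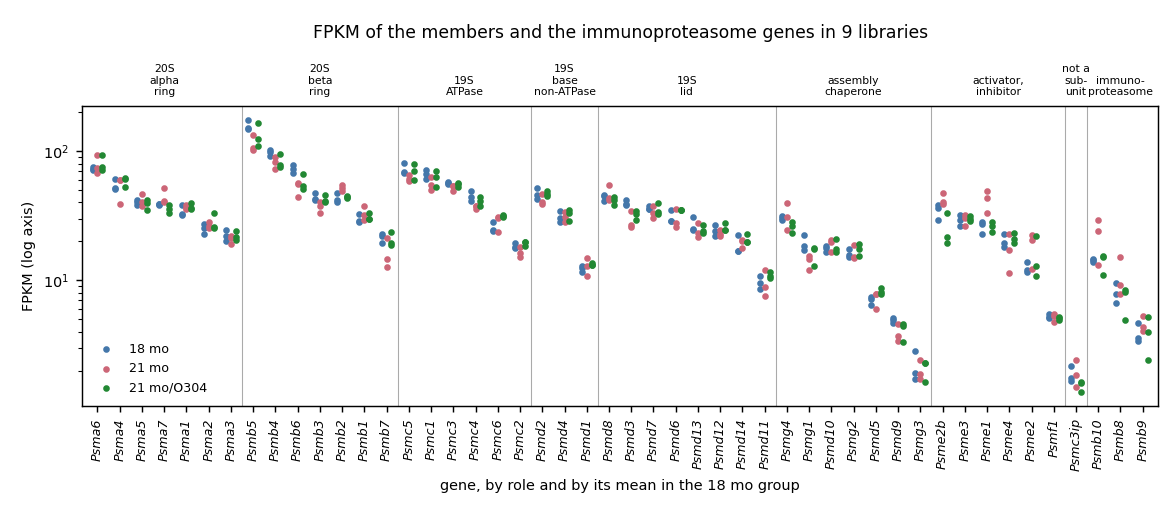
FPKM of the 45 tested members and of the 3 immunoproteasome genes on a log axis, ordered by role and by the mean of the 18 mo group, with 1 point per library and 1 colour per group. Psmb5 stands highest at a mean of 157 FPKM in the 18 mo group, and Psmc3ip, the gene that is not a subunit, lowest at 1.86.

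Levels of different genes were compared per annotated gene length, as FPKM. In the 18 mo group the highest member was Psmb5, at 157 ± 14.4 FPKM (SD, n = 3). Psmb4, a structural subunit of the same ring, followed at 97.1 ± 5.25 FPKM. The next genes, Psmb6 at 73.1 ± 5.23, Psma6 at 72.7 ± 1.86 and the ATPase gene Psmc5 at 72.6 ± 6.70 FPKM, differed from each other by less than their spread between mice. Psmb7, the third active-site gene, was at 21.5 ± 1.77 FPKM. The lengths used differ, at 3421 bases for Psmb7 and 899 for Psmb5. Without length, their 18 mo means were 75.7 and 145 CPM. The β subunits enter the particle in equal number, but the FPKM of their genes spanned a wide range, which depends in part on these lengths. The genes of the 7 assembly chaperones, which leave the particle once it is built, ran from 2.17 ± 0.596 FPKM for Psmg3 to 30.4 ± 0.999 FPKM for Psmg4. The activators Psme1 and Psme2 were at 26.2 ± 2.83 and 12.5 ± 1.18 FPKM, and the inhibitor gene Psmf1 at 5.25 ± 0.209 FPKM. The median FPKM of the 17 genes of the 19S particle was 0.708 to 0.795 times that of the 14 tested genes of the 20S core in the 18 mo libraries. It was 0.820, 0.698 and 0.644 times in the 3 mice of the 21 mo group and 0.811 to 0.832 times under O304.

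**Figure D2:**
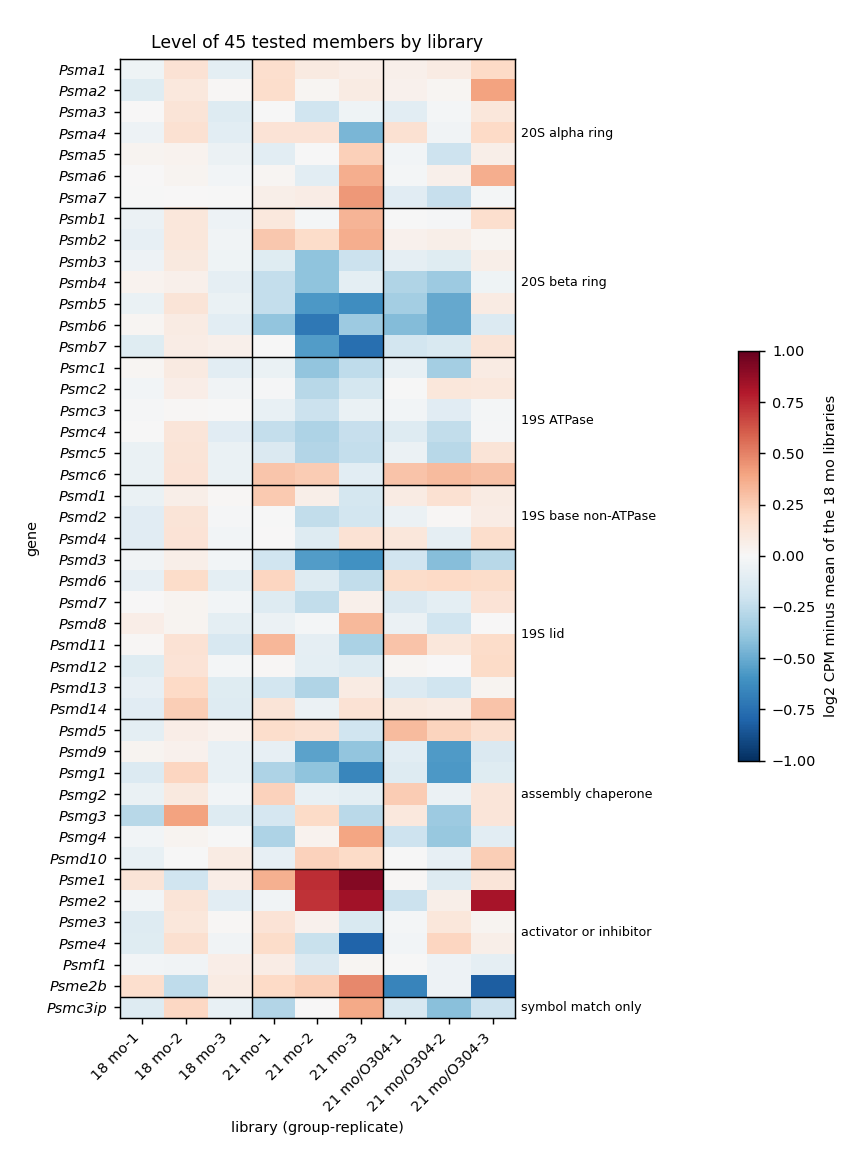
Level of each tested member in each library as log2 CPM minus the mean of the 18 mo libraries, with genes in rows by role and libraries in columns. The active-site genes Psmb5, Psmb6 and Psmb7 are blue (lower) and Psme1 red (higher) in replicates 2 and 3 of the 21 mo group, while most other rows are pale. Psmb6 is also at −0.40 in replicate 1 of that group. In replicates 1 and 2 of the O304 group Psmb6 is at −0.44 and −0.52 and Psmb5 at −0.34 and −0.51.

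The comparison of 21-month-old with 18-month-old mice asks what changed in the kidney over this interval. The proteasome genes were not shifted as 1 block. The median log2 fold change of the 45 tested members was −0.02, beside 0.03 over all genes tested, and 21 were higher and 24 lower in the 21 mo group, where 52.7% of all genes were higher. No member passed the threshold with edgeR, where 0.0189% of all genes tested did. At an unadjusted p under 0.05 there were 7 members, beside 26.1% of all genes. Of these 2 were higher and 5 lower, beside 14% and 12% of all genes. By library size alone, without TMM factors, 3 were higher and 1 lower, beside 19.5% and 8.73%, and 0 of the 3 active-site genes were among them. DESeq2 called 3 members, Psme1 higher and Psmb6 and Psmd3 lower, beside 14.4% of its genes, 7.74% higher and 6.65% lower. Differences between roles were not tested. By role, the median was 0.09 for the 7 tested α genes, −0.24 for the 7 β genes, −0.19 for the 6 ATPase genes, 0.01 for the 3 other genes of the 19S base, −0.06 for the 8 genes of the 19S lid, 0.03 for the 7 assembly chaperones and 0.16 for the 6 activators and inhibitor. By library size alone the medians were 0.23 for the α, −0.10 for the β and −0.05 for the ATPase genes. For the base, lid, chaperones and activators with inhibitor they were 0.16, 0.08, 0.16 and 0.30, beside 0.18 over all genes.

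**Figure D3:**
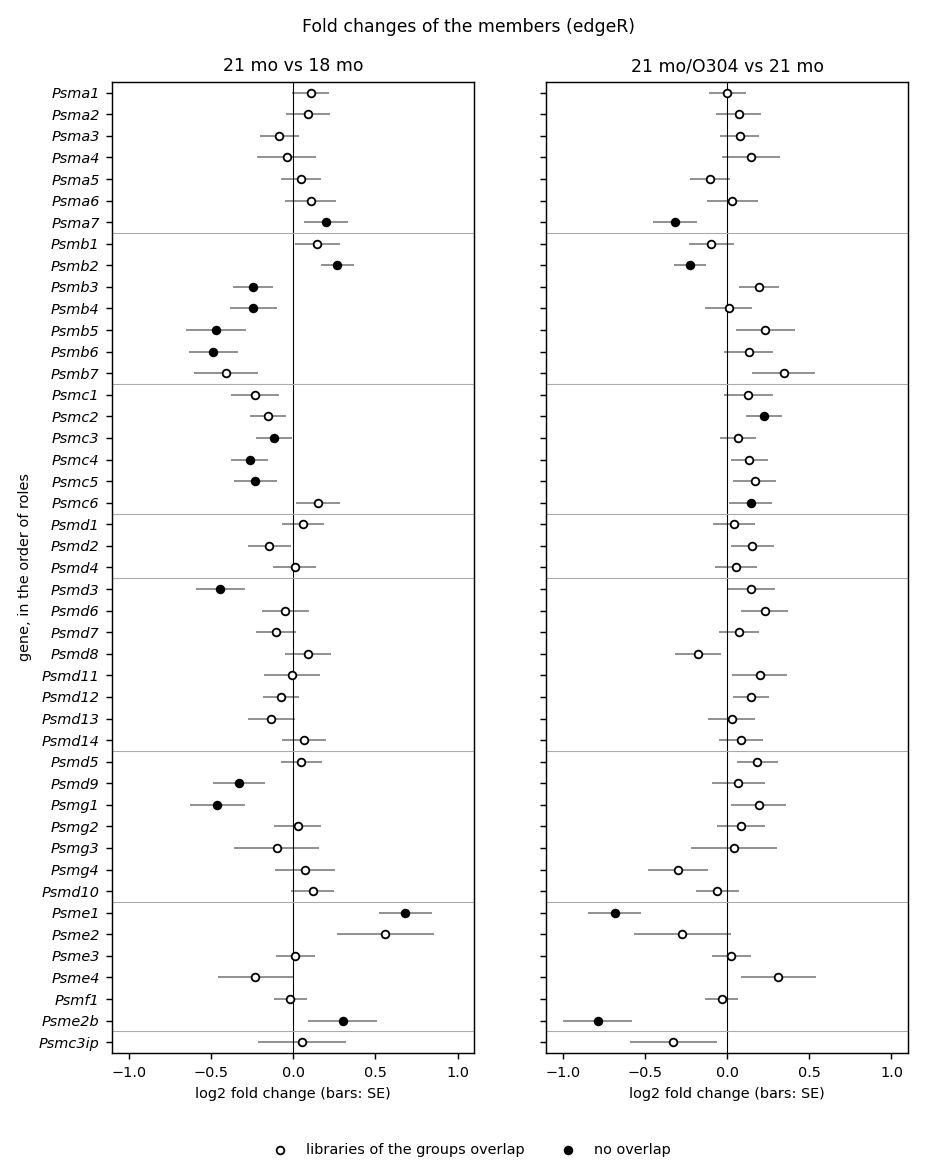
Log2 fold change of each tested member, with its standard error as a bar, for 21 mo against 18 mo (left) and 21 mo/O304 against 21 mo (right). Filled points mark genes whose libraries do not overlap between the groups. On the left Psmb5, Psmb6, Psmb7, Psmd3 and Psmg1 lie below −0.40 and Psme1 and Psme2 above 0.50.

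The 3 active-site genes were all lower in the 21 mo group. Psmb6, on chromosome 11 from 70525367 to 70527858, was at 143, 149 and 131 CPM in the 18 mo mice. It was at 107, 85.8 and 109 CPM in the 21 mo mice. Every 21 mo mouse therefore lay below every 18 mo mouse, and the log2 fold change was −0.49 (SE 0.15, adjusted p = 0.0991, edgeR). Psmb5, on chromosome 14 from 54614119 to 54618022, was at 138, 159 and 138 CPM at 18 mo. Its 21 mo libraries held 123, 97.2 and 94.3 CPM, again without overlap, a log2 change of −0.47 (SE 0.18, adjusted p = 0.149, edgeR). Psmb7, on chromosome 2 from 38588036 to 38644087, was at 69.6, 79.5 and 78.2 CPM at 18 mo. It was at 75.4, 51.2 and 44.7 CPM at 21 mo, where replicate 1 stayed within the 18 mo range, and its log2 fold change was −0.41 (SE 0.19, adjusted p = 0.215, edgeR). Psmb7 overlaps Nek6 and Gm13586 on the other strand and the small gene Gm27634 on its own. The share of the 3 genes in the summed FPKM of the β genes, which comes from these same counts, was smaller in every 21 mo mouse. Psmb5, Psmb6 and Psmb7 made up 53.5%, 54.6% and 54.0% of the summed FPKM of the 7 β genes in the 18 mo libraries and 50.4%, 47.1% and 43.6% in the 21 mo libraries. This share does not depend on how libraries were scaled, but it does depend on the annotated length of each gene.

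The other β genes were split. Psmb3 and Psmb4, which shape the ring without cutting, had log2 fold changes of −0.24 each. Psmb2 was at 50.5, 57.6 and 52.1 CPM at 18 mo and at 64.2, 60.5 and 68.4 CPM at 21 mo, all above, a log2 change of 0.27 (SE 0.10, adjusted p = 0.135, edgeR). Psmb1 was at 0.15. In the α ring the values were small. They ran from −0.08 for Psma3 to 0.20 for Psma7, whose 18 mo libraries were nearly equal at 122.5 to 122.6 CPM and whose 21 mo libraries held 127.5, 129 and 165 CPM. The summed FPKM of the α genes was 276 to 307 at 18 mo and 289 to 314 at 21 mo. That of the β genes was 444 to 503 at 18 mo and 415, 348 and 389 at 21 mo, all below.

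**Figure D4:**
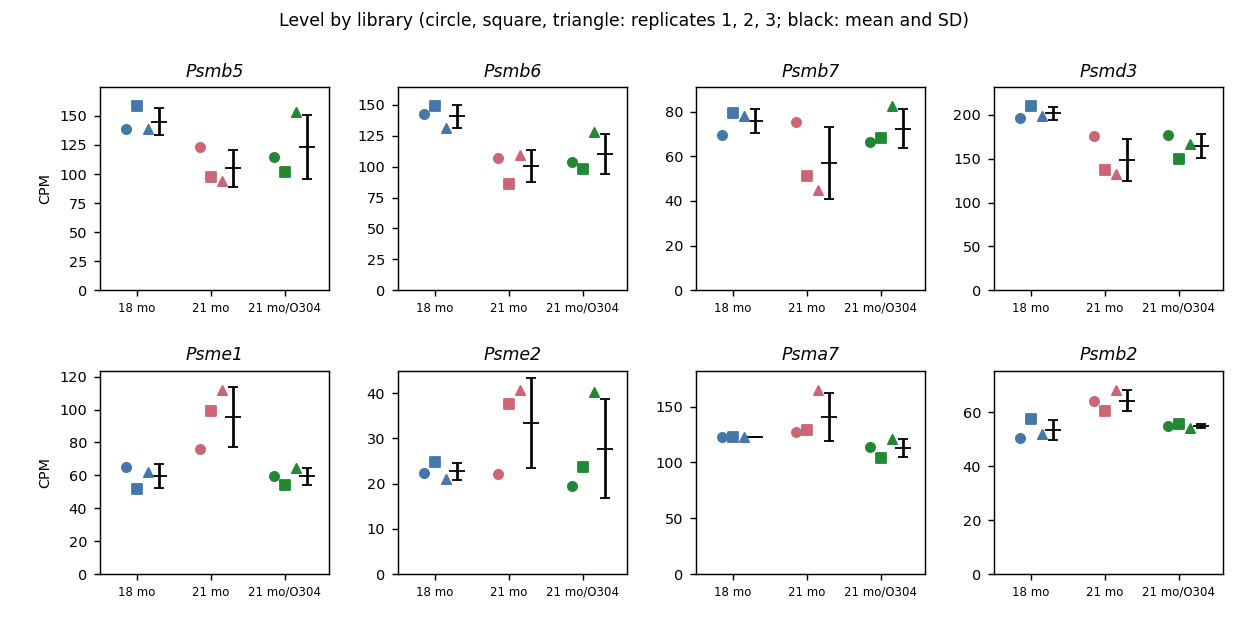
CPM of 8 members in each library, with circles, squares and triangles for replicates 1, 2 and 3 and the mean and SD of each group in black. All 21 mo libraries lie below all 18 mo libraries for Psmb5, Psmb6 and Psmd3 and above them for Psme1, Psma7 and Psmb2, while the groups overlap for Psmb7 and Psme2.

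In the 19S particle, 5 of the 6 ATPase genes were lower in the 21 mo group, from Psmc4 at −0.26 (SE 0.11, adjusted p = 0.182, edgeR) to Psmc3 at −0.12, and Psmc6 was higher at 0.15. Among all genes 47.3% were lower. By library size alone 4 of the 6 were lower, where 63.7% of all genes were higher. Psmc4 was at 98.85, 108 and 91.9 CPM at 18 mo and at 84.1, 80.0 and 84.8 CPM at 21 mo. Its groups did not overlap. In the base, Psmd1 and Psmd2, the scaffold subunits, were at 0.06 and −0.15. In the lid the lowest value was that of Psmd3, a structural subunit, on chromosome 11 from 98682554 to 98695979. It held 197, 210.5 and 199 CPM in the 18 mo mice and 176, 137 and 133 CPM in the 21 mo mice, all below, a log2 change of −0.44 (SE 0.15, adjusted p = 0.112, edgeR). Psmd8 had the highest value of that group at 0.09. The deubiquitinase of the lid, Psmd14, was at 0.06.

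Among the assembly chaperones, Psmg1, part of the dimer on which α rings are built, had the lowest value. It was at 24.2, 30.9 and 25.4 CPM at 18 mo and at 21.5, 20.1 and 16.9 CPM at 21 mo, without overlap, a log2 change of −0.46 (SE 0.17, adjusted p = 0.136, edgeR). Its partner Psmg2 was at 0.03. Psmd10, a chaperone of the 19S base, was the highest of this group at 0.12. Psmc3ip, the gene that is not a subunit, was at 42 to 99 counts per library and 0.05.

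The activator genes Psme1 and Psme2 lay on the other side. Psme1, on chromosome 14 from 55578123 to 55581529, was at 65.0, 51.6 and 62.2 CPM in the 18 mo mice. It was at 75.9, 98.9 and 112 CPM in the 21 mo mice, each above all 18 mo mice. Its log2 fold change of 0.68 had the smallest p of the members (SE 0.16, adjusted p = 0.0718, edgeR). Psme2, whose product forms the activator with that of Psme1, lies 5912 bases away from it. It was at 22.3, 24.8 and 21.0 CPM at 18 mo and at 22.1, 37.5 and 40.8 CPM at 21 mo, so replicate 1 lay within the 18 mo range (log2 fold change 0.56, SE 0.30, adjusted p = 0.259, edgeR). Psme3 and Psme4, the nuclear activators, were at 0.01 and −0.23, and the latter ran from 99.2 to 197 CPM within the 21 mo group. Psmf1, the inhibitor, was at −0.02. Psme2b is a single-exon near-copy of Psme2 and overlaps other genes on the same strand, so that its counts are uncertain. It was at 0.30.

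Over the tested members, 4 were higher in every 21 mo mouse than in every 18 mo mouse, where 13.5% of all genes were, and 10 were lower, where 15.3% of all genes were. The values of Psmb5, Psmb7, Psmd3, Psme1 and Psme2 in replicates 2 and 3 of the 21 mo group lay farther from the 18 mo mean than those in replicate 1. These are also the mice with low sums of proximal tubule markers and high sums of leukocyte markers, and the part of this in the results was not tested. In replicate 1 of the 21 mo group the tubule sum was 14660 CPM. Its leukocyte sum was 611 CPM, against 217 to 377 CPM in the 18 mo mice. In this mouse Psmb6 was at 107 CPM and Psmb5 at 123 CPM, against 131 to 149 and 138 to 159 CPM in the 18 mo mice. Psmb7 was at 75.4 CPM there, within the 18 mo range of 69.6 to 79.5 CPM. Under O304 Psmb6 was at 98.5 to 128 CPM, Psmb5 at 101.5 to 154 CPM and Psmb7 at 66.4 to 82.6 CPM. Without replicate 1 of the 21 mo group, edgeR called 5 members, Psmb5 at −0.58, Psmb6 at −0.51, Psmb7 at −0.64, Psmd3 at −0.56 and Psme1 at 0.84, beside 25.4% of all genes tested. Without replicate 3 of that group 0 members passed, beside 0.806% of all genes tested, and Psmb7 was at −0.28. The median of all members was 0.06 without replicate 2 of the 18 mo group. With limma voom and sample quality weights 20 members passed, 4 higher and 16 lower, beside 52.9% of genes, 26.3% higher and 26.6% lower. This fit gave replicate 2 of the 21 mo group a weight of 9.12 against 0.223 and 0.132 for replicates 1 and 3. The direction of weak genes depended on scaling. By library size alone the median of all genes was at 0.18 and that of the members at 0.12, with 31 members higher and 14 lower, while Psmb5, Psmb6 and Psmb7 were all lower, at a median of −0.34.

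The comparison of O304 with saline at 21 months asks what the compound changed. Here 33 members were higher and 12 lower under O304, where 48.2% of all genes were higher. The median log2 fold change was 0.07, beside −0.02 over all genes. No member passed the threshold with edgeR, and 0% of all genes did. At an unadjusted p under 0.05 there were 4 members, beside 20.7% of all genes, and all 4 were lower, beside 12.4% of all genes. DESeq2 called 2, Psme1 and Psme2b, both lower, beside 6.2% of its genes in either direction and 4.1% in this one. With limma voom and sample quality weights 14 members passed, 9 higher and 5 lower, beside 41.1% of genes, 21.2% higher and 19.8% lower. The excess of higher members did not hold on every scale. By library size alone 6 members were higher and 39 lower, as were 11098 of the 15902 genes, and the medians were −0.14 for the members and −0.23 for all genes. The members lay 0.09 above the median of all genes on both scales, but single libraries set this gap. It was 0.14 and 0.04 without replicates 1 and 2 of the 21 mo group and 0.16 and 0.04 without replicates 2 and 3 of the O304 group, where the members' median itself was 0.10, 0.03, 0.11 and 0.01.

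Under O304 Psme1 was at 59.9, 54.2 and 64.4 CPM, below all 3 saline mice and within the 18 mo range, a log2 change of −0.68 (SE 0.16, adjusted p = 0.175, edgeR). Psme2 was at 19.5, 23.6 and 40.2 CPM, where replicate 3 was as high as the highest saline mice, and its log2 fold change was −0.27. Psme2b had the lowest value, −0.79 (SE 0.21, adjusted p = 0.175, edgeR), with 18.7, 28.4 and 16.6 CPM under O304 against 33.9, 34.9 and 41.2 CPM. The counts of Psme2 and Psme2b cannot be separated with certainty. In the core, where Psma4 had the highest value of the α ring at 0.15, Psma7 was at 114, 104 and 121 CPM, below all saline mice (−0.32, SE 0.13, adjusted p = 0.230, edgeR). Psmb2 was at 55.1, 55.7 and 54.2 CPM, also below all of them (−0.23, SE 0.10, adjusted p = 0.236, edgeR).

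The active-site genes were all higher under O304, but none beyond the spread between mice. Psmb7 was at 66.4, 68.2 and 82.6 CPM, between the saline mice at 51.2 and 44.7 CPM and the third at 75.4 CPM or above it. Its log2 fold change was 0.34 (SE 0.19, adjusted p = 0.320, edgeR). Without replicate 1 of the 21 mo group it was 0.58 and passed, together with Psme1 at −0.83 and Psme2b at −0.85, beside 23.1% of all genes. Without replicate 3 of that group 0 members passed, beside 0.0062% of all genes, and Psmb7 was at 0.20. Psmb5 was at 114, 101.5 and 154 CPM and 0.23 (SE 0.18, adjusted p = 0.457, edgeR). Its level within the O304 group thus spanned the range from the saline mice to the 18 mo mice. Psmb6 was at 104, 98.5 and 128 CPM and 0.13 (SE 0.15, adjusted p = 0.609, edgeR), a value that turned to −0.08 by library size alone. The 3 genes made up 50.3%, 48.7% and 54.2% of the FPKM of the β ring under O304. All 6 ATPase genes had a positive value, led by Psmc2 at 0.22 (SE 0.11, adjusted p = 0.273, edgeR), whose groups did not overlap, and by library size alone 5 of the 6 were negative. Psmc3 was the lowest of them at 0.06. In the base, Psmd2 was at 0.15 and Psmd1 at 0.04, both negative by library size alone. In the lid, 7 of 8 genes had a positive value, with the highest at 0.23 for Psmd6 and the lowest at −0.18 for Psmd8. By library size alone 6 of the 8 were negative. Psme4 was at 0.31. Of the chaperone genes, Psmg1 had the highest value at 0.19, which was −0.01 by library size alone, and Psmg4 the lowest at −0.30. Psmc3ip was at −0.33. Across the members, 2 were higher in every O304 mouse than in every saline mouse (10.8% of all genes) and 4 were lower (10.5% of all genes).

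Against the 18 mo group, which shares neither age nor time since surgery with the O304 group, the median was −0.01, beside 0.00 over all genes, and 21 members were higher and 24 lower, where 50.4% of all genes were higher. By library size alone 16 members were higher and 29 lower, with medians of −0.07 for the members and −0.06 for all genes. With edgeR 0 members passed, as for 0% of all genes. DESeq2 and limma voom with quality weights also called 0, beside 1.47% and 2.61% of genes. At an unadjusted p under 0.05 there were 2, beside 9.66% of all genes, and both were lower, beside 5.33% of all genes. This split depended on the scaling. With upper-quartile factors 2 members were higher and 0 lower at this p, beside 5.16% and 4.68% of all genes, and with DESeq2 1 was higher and 2 lower, beside 5.08% and 5.94%. The 2 members with TMM factors were Psmb6, at −0.35 (SE 0.15, adjusted p = 0.495, edgeR), and Psme2b, at −0.49 (SE 0.21, adjusted p = 0.509, edgeR). Psmb6 was the active-site gene whose O304 libraries lay all below the 18 mo libraries, whereas Psmb5 (−0.24) and Psmb7 (−0.06) overlapped with them. Psmd3 was at −0.29, with 177, 150.0 and 167 CPM, all below the 18 mo mice. Psmc6 had the highest value, 0.29 (SE 0.13, adjusted p = 0.523, edgeR), with 112, 114 and 113 CPM against 87.7, 101.1 and 88.0 CPM. In the core the values ran from −0.12 for Psma7 to 0.16 for Psma2 in the α ring, and Psmb1 was the highest β gene at 0.05. In the 19S particle Psmc4 was the lowest ATPase gene at −0.13, Psmd1 was at 0.10 and Psmd2 at 0.01 in the base, and Psmd11 was the highest of the lid at 0.19. The chaperone genes ran from −0.27 for Psmg1 to 0.23 for Psmd5, a chaperone of the 19S base. Psme2 was at 0.29, Psme1 at −0.00 and Psmc3ip at −0.27. In all, 3 members were higher in every O304 mouse than in every 18 mo mouse (13.2% of all genes) and 7 lower (13.3% of all genes).

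The immunoproteasome genes, which are outside the rule, were set against the active-site genes they replace. Psmb8 and Psmb9 lie 9957 bases apart on chromosome 17, in the major histocompatibility region. Psmb10 was at 26.01, 24.1 and 25.4 CPM in the 18 mo mice. It was at 23.2, 42.0 and 52.3 CPM in the 21 mo mice and at 19.3, 27.2 and 26.5 CPM under O304. Its log2 fold changes were 0.64 for 21 mo against 18 mo (SE 0.27, adjusted p = 0.171, edgeR) and −0.69 for O304 against saline (SE 0.27, adjusted p = 0.206, edgeR). Psmb8 held 22.2, 18.5 and 27.0 CPM, then 21.9, 26.1 and 43.0 CPM, then 13.96, 23.5 and 22.9 CPM in the same order of groups. Psmb9 was lower, at 9.13 to 19.97 CPM over all libraries.

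**Figure D5:**
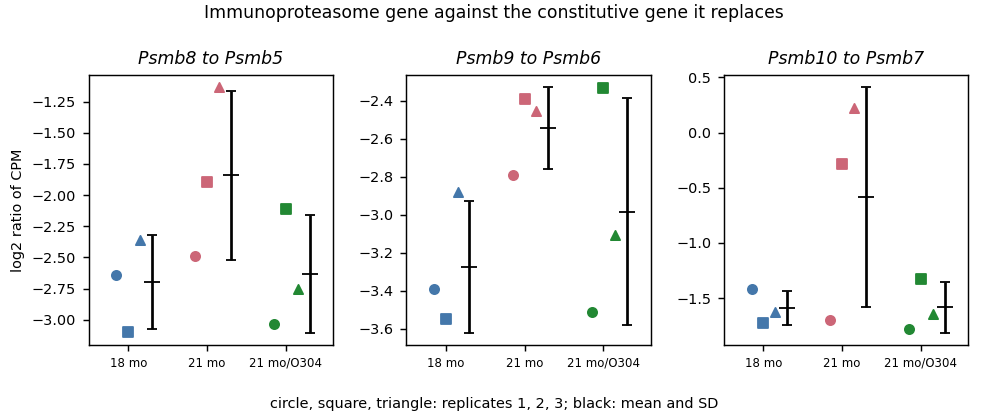
Log2 ratio of the CPM of each immunoproteasome gene to that of the active-site gene it replaces, 1 point per library, with the mean and SD of each group in black. For Psmb10 to Psmb7, replicates 2 and 3 of the 21 mo group stand apart at −0.29 and 0.23, while the other 7 libraries lie between −1.78 and −1.33.

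A ratio of genes within a library does not depend on its scaling. The log2 ratio of Psmb10 to Psmb7 was −1.42, −1.72 and −1.62 in the 18 mo mice and −1.70, −0.29 and 0.23 in the 21 mo mice. Its mean was 1.00 higher at 21 mo (exact permutation test, two-sided, p = 0.3), and 1.56 and 0.59 higher without replicates 1 and 3 of the 21 mo group. The ratio of Psmb9 to Psmb6 was −3.39, −3.55 and −2.88 at 18 mo and −2.79, −2.39 and −2.45 at 21 mo. This was the pair without overlap, 0.73 higher with an exact permutation p = 0.1, the smallest that 3 mice against 3 can give. Psmb9 itself was at 0.23 (SE 0.27, adjusted p = 0.603, edgeR), and its groups overlapped. Psmb6, the other gene of this ratio, was at −0.49, and its groups did not overlap. The ratio of Psmb8 to Psmb5 was 0.86 higher (exact permutation test, p = 0.2), and 0.50 without replicate 3 of the 21 mo group. Under O304 the ratios were lower than under saline by −0.79 for Psmb8 to Psmb5, −0.44 for Psmb9 to Psmb6 and −0.997 for Psmb10 to Psmb7 (exact permutation p = 0.2, 0.4 and 0.3). Leaving out 1 library, these differences ran from −1.12 to −0.44, from −0.76 to −0.18 and from −1.55 to −0.59, with the outermost values of the first and the last without replicates 1 and 3 of the 21 mo group and those of the second without replicates 2 and 1 of the O304 group. Against the 18 mo group they differed by 0.07, 0.29 and 0.00. Adjusted over the 9 comparisons, all p-values were 0.54 or above. Per annotated gene length, Psmb10 made up 42.9%, 37.8% and 39.5% of the summed FPKM of Psmb10 and Psmb7 at 18 mo. It made up 38.2%, 62.2% and 70.1% at 21 mo and 36.8%, 44.4% and 39.1% under O304. The mice with over 60% hold the highest leukocyte sums, 1014 and 3213 CPM, and the part of leukocytes in these ratios was not tested.

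Genes that work with the proteasome were read from 4 lists beside the immunoproteasome genes, with 29 genes tested in all, of which Ddi2 stands in 2 lists. In these lists 0 genes passed the threshold with edgeR in any comparison. At an unadjusted p under 0.05 there were 7 for 21 mo against 18 mo, 3 for O304 against saline and 5 for O304 against 18 mo, beside the 26.1%, 20.7% and 9.66% of all genes given above. DESeq2 called 5, 1 and 1 of the 29, beside 14.4%, 6.2% and 1.47% of its genes, and limma voom with quality weights 17, 8 and 1, beside 52.9%, 41.1% and 2.61%. Of the other subunits and assembly factors, all 4 tested were lower in the 21 mo group, where 47.3% of all genes were lower. By library size alone the median of all genes was 0.18 in this comparison, so the sign of small values depends on scaling. Of the 4 genes, 1 had an unadjusted p under 0.05. This was Adrm1, the ubiquitin receptor of the 19S base, at 108, 122 and 112 CPM at 18 mo and 94.9, 65.4 and 73.6 CPM at 21 mo (−0.55, SE 0.15, adjusted p = 0.0849, edgeR). It was at 80.1 to 92.1 CPM under O304, also below all 18 mo mice, at 0.12 against saline and −0.43 against the 18 mo group. Sem1, a small lid subunit, was at −0.25 at 21 mo and −0.31 for O304 against 18 mo, and Pomp, the chaperone of the β ring, had the smallest p of this list under O304, at 0.14 against saline.

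Of 12 shuttle, docking and deubiquitinating proteins, 6 were higher and 6 lower at 21 mo. Zfand5, a protein that binds and activates the 26S proteasome, was at 46.5, 60.6 and 61.2 CPM at 18 mo and 78.2, 73.5 and 90.7 CPM at 21 mo (0.53, SE 0.14, adjusted p = 0.0810, edgeR). Zfand2a was at −0.52 against saline, and against the 18 mo group Usp14, a deubiquitinase of the proteasome, and Zfand5 were at 0.37 each. Nfe2l1 is the transcription factor that raises proteasome gene expression when the proteasome is blocked. Of 8 genes of its pathway, 3 were higher and 5 lower at 21 mo, where Ddi2, the protease that activates it, was at −0.38 and Nploc4 at −0.21. Under O304, 7 of these 8 were above saline, where 48.2% of all genes were higher. They were led by Ngly1, the enzyme that removes the sugars of Nfe2l1, at 0.51 (SE 0.18, adjusted p = 0.190, edgeR), and then Sel1l at 0.27. Nfe2l1 itself was the gene below saline, at −0.16. By library size alone the median of all genes was −0.23 in this comparison, so the sign of small values depends on scaling. Against the 18 mo group Ngly1 and Sel1l were at 0.33 and 0.31.

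Of 6 genes for ubiquitin and its activating enzymes, 2 were higher and 4 lower at 21 mo. The polyubiquitin gene Ubb was at 0.28 for O304 against saline. Uba6, which encodes a ubiquitin-activating enzyme, was at 0.31 for O304 against 18 mo.

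The mice of the 21 mo group differed most among themselves, as they did over the whole transcriptome. Of the 45 members, 26 had their largest SD in that group (57.8%), as did 65.3% of all genes tested. The median SD of log2 CPM was 0.11 at 18 mo, 0.18 at 21 mo and 0.12 under O304 for the members. For all genes tested it was 0.18, 0.37 and 0.20.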

How the data were processed

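Whole-kidney RNA of 9 mice was sequenced, with 1 library per mouse. The submitters' processing notes name HISAT2 2.0.5, featureCounts 1.5.0-p3, DESeq2 1.20.0 and the build GRCm38. Counts were deposited as whole numbers per gene without normalization. The authors also deposited FPKM, derived from counts and gene length, which is a further column. Strandedness is not given in the sources used here. The authors' own fold changes and p-values were not used. Starting from the counts, edgeR 4.0.16 (R 4.3.3) was applied to all 9 libraries with 3 group means, TMM factors and filterByExpr (minimum count 10, minimum total 15), with Benjamini-Hochberg adjustment over 15902 genes. DESeq2 1.42.0 and limma 3.58.1 were alternatives, with limma-trend on log2(FPKM + 1) for a mean FPKM of at least 0.5. Scripts were tested on simulated data. The edgeR p-values set a group difference against 1 spread between mice per gene, estimated over all 3 groups, although the spread was largest at 21 mo. The exact permutation p-values rest on relabelling the 6 libraries of a comparison.

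The members and gene lists were chosen with earlier results of these data known. Named are Psmb5, Psmb6 and Psmb7, the 5 members with the smallest p in each comparison, the highest and lowest of each role, members that failed the filter or matched by symbol alone, the immunoproteasome genes and the 2 genes of each list with the smallest p per comparison. Other genes were named after their values were seen, namely those given to complete a ring, a pair of partners or the FPKM order. Of 33 symbols in the lists, 32 were found. Scaling by library size alone was added after the data were seen. Some genes of the lists that this rule names are not reported here, and counts over the lists include them. No sequence is printed.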

Additional observations from a re-analysis of the deposited data

How the results depend on the processing

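With edgeR no member passed in the 3 comparisons, and this held with upper-quartile factors, both other filters, only the 6 libraries compared, limma-trend on FPKM, library size alone and a fold minimum. DESeq2 gave 3 members for 21 mo against 18 mo and 2 for O304 against saline, limma voom with quality weights 20 and 14, and an unadjusted p 7 and 4, with 2 for O304 against 18 mo. Leaving out 1 library gave 0 to 5 and 0 to 3 members, the highest without replicate 1 of the 21 mo group, and 0 for O304 against 18 mo. For O304 against saline the median was 0.15 with voom and −0.14 by library size alone, where it was 0.12 for 21 mo against 18 mo. For Psma4 the value turned to −0.0364 with voom. By library size alone Psma3 turned to 0.0625 at 21 mo, Psmb6 to −0.0805, Psma4 to −0.0501, Psmd2 to −0.0521, Psmg1 to −0.0115, Psmc3 to −0.15 and Psmd1 to −0.15 for O304 against saline, and Psmb1 to −0.0126 and Psmd2 to −0.0564 for O304 against 18 mo. With the 6 libraries Psmd2 was at −0.0014 there. Leaving out 1 library moved Psmd1 from −0.0349 to 0.15, Psmd8 from −0.0581 to 0.18 and Psmc3ip from −0.17 to 0.22 at 21 mo. It moved Psma4 from −0.0198 to 0.25 and Psmd1 from −0.0536 to 0.15 under O304 against saline, and Psme2 from −0.064 to 0.49 and Psmd2 from −0.0507 to 0.0742 against 18 mo. The ratios against 18 mo ran from −0.20 to 0.27 for Psmb8 to Psmb5, from −0.0348 to 0.55 for Psmb9 to Psmb6 and from −0.12 to 0.10 for Psmb10 to Psmb7. The causes were not tested, other than that a scaling shifts all genes alike. With the replicate number as a block 0 members passed, the medians were −0.02, 0.07 and −0.01, and the block changed no call. Same-numbered libraries correlated at −0.13 to 0.17 in their deviations from group means, and 2 of 9 correlated best with their own number. With so few libraries this cannot settle whether the numbers pair the mice. With 3 mice a group, small differences between members cannot be resolved.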
